A study of Penicillium oxalicum with 9 samples.

Results

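The protein arginine methyltransferase genes of the filamentous fungus Penicillium oxalicum are 4 genes, taken by gene identifier: POX_f08428 (prmt2), POX_b03080 (prmt3), POX_d05270 and POX_e06662. The tables list 11082 features, of which 9822 carry an annotated gene identifier, and all 4 genes are among them and were tested. Their expression was measured by RNA-sequencing of mycelium in 9 libraries, 3 biological replicates from each of 3 strains of the HP7-1 lineage. The background strain Δku70 is labelled PoxKu70 and WT. It lacks ku70, a gene of non-homologous end joining, which was replaced by a hygromycin resistance marker so that gene targeting is efficient, and both mutants were made in it and carry the same deletion. The second strain is the knockout that the labels call POX03070 and the study's text Δprmt3. The third is the PoxCxrA knockout, ΔcxrA. Each mutant also carries a G418 resistance marker in place of the deleted gene, which Δku70 does not, so the marker and the deletion cannot be told apart. All strains were grown for 24 h on 1% glucose, transferred to 2% Avicel, a microcrystalline cellulose, and sampled 24 h later, at 28 °C.

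Protein arginine methyltransferases move methyl groups from S-adenosylmethionine onto arginine side chains of other proteins. Depending on the enzyme, the arginine carries a single methyl group or a pair of them in an asymmetric or symmetric arrangement, and the known substrates in yeasts and animals include histones, RNA-binding proteins and ribosomal proteins. PRMT3 of fission yeast and mammals is a cytosolic enzyme best known for methylating a protein of the small ribosomal subunit. For P. oxalicum, the study reports that PRMT3 fused to green fluorescent protein appeared to lie in the nucleus on Avicel. The study named POX_f08428 PRMT2 and POX_b03080 PRMT3, and the remaining pair is known here only by identifier. CxrA is a Zn2Cys6 transcription factor that the fungus needs for normal production of cellulases and xylanases. The libraries let the RNA of each methyltransferase gene be compared between the background strain, a strain without prmt3 and a strain without cxrA.

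Values are fragments per kilobase of exon, relative to all mapped fragments of the library (FPKM), as the authors deposited them, or scaled FPKM, which are FPKM divided by 1 factor for each library. The factors lay between 0.909 and 0.964 in Δku70, 0.822 and 0.863 in Δprmt3, and 1.23 and 1.28 in ΔcxrA, so that unscaled values are higher in ΔcxrA and lower in Δprmt3 for most genes. The sum of the 20 most abundant features made up 14.6% to 17.0% of a Δku70 library, 24.9% to 25.5% of a Δprmt3 library and 11.4% to 13.2% of a ΔcxrA library. Whether this difference in composition has a part in the results was not tested, and values that do not depend on the scaling are given as ratios within a library. Values are relative to the other RNA of the whole mycelium, so fewer cells that express a gene and less of its RNA per cell cannot be told apart.

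The number in the label POX03070 is not that of the prmt3 identifier, POX_b03080, and the mapping to Δprmt3 rests on the study's text, in which it is the only other deletion strain sequenced. Expression of prmt3 was 33.4, 24.9 and 29.1 FPKM in the Δku70 libraries, and it was listed at 0, 0.04 and 0 in the 3 libraries labelled POX03070 knockout. The cxrA gene (POX_a00763) had 90.7 to 136 FPKM in the 6 libraries of Δku70 and Δprmt3, and all 3 ΔcxrA libraries list it at 0.

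The 4 genes spanned a wide range of expression on Avicel. In Δku70, POX_e06662 was the highest at 114 ± 15.6 scaled FPKM (SD, n = 3), above 84.0% of the annotated genes, whose median was 28.4. Next came prmt3 at 30.9 ± 3.88 and prmt2 at 20.2 ± 0.47 (SD, n = 3), near the middle of the annotated genes, above 52.4% and 40.7% of them. POX_d05270 was the lowest at 2.89 ± 0.54 (SD, n = 3), above 18.2% of them. Each step in this order was larger than the spread between libraries, with 3.69-fold from POX_e06662 to prmt3, 1.53-fold from prmt3 to prmt2 and 6.98-fold from prmt2 to POX_d05270, and no neighbours in the order overlapped.

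The order was the same in ΔcxrA, but the steps were smaller. POX_e06662 was 1.53-fold above prmt3, prmt3 1.22-fold above prmt2, and prmt2 2.89-fold above POX_d05270. The closest neighbours were prmt3, with a lowest library of 51.2 scaled FPKM, and prmt2, with a highest of 48.5. In Δprmt3 the 3 remaining genes kept this order, with POX_e06662 5.30-fold above prmt2 and prmt2 3.24-fold above POX_d05270, again without overlap.

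**Figure D1:**
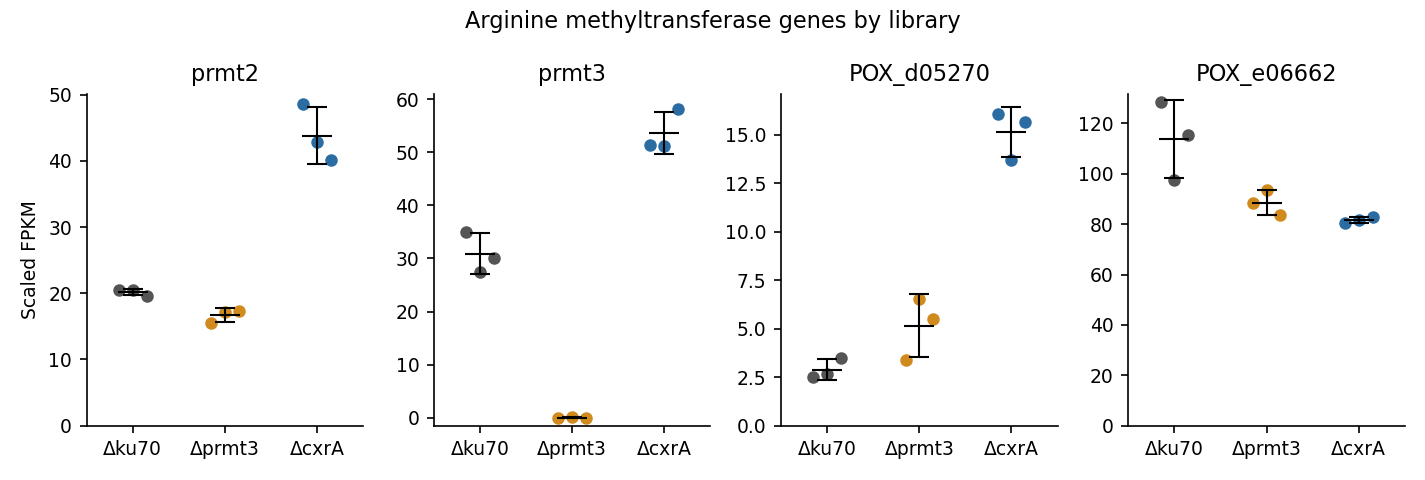
Scaled FPKM (vertical axis, linear, a separate scale for each gene) of the 4 arginine methyltransferase genes in the 9 libraries, by strain. Each point is 1 library and the bars are the mean ± SD of 3 libraries. prmt2, prmt3 and POX_d05270 stand highest in all ΔcxrA libraries, and POX_e06662 stands highest in all Δku70 libraries.

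In ΔcxrA, prmt2 and POX_d05270 rose against Δku70, prmt3 was higher without passing the fold threshold, and POX_e06662 was lower without passing it. A gene was called changed where its adjusted p was under 0.05 and its log2 fold change was beyond 1 in either direction, in a limma fit of log2(scaled FPKM + 0.1) across all 10578 features above 0 in any library, with Benjamini-Hochberg adjustment. By this rule 2 of the 4 genes were called in ΔcxrA, both higher. Of the 9363 annotated genes tested 28.5% were called and 14.6% were called higher. All 4 genes had an adjusted p under 0.05 and scaled values that did not overlap between the strains, as had 61.5% and 70.3% of the annotated genes. The median log2 fold change of the 4 genes was 0.95, against 0.013 over all annotated genes tested, and with 4 genes the count says little beyond the single genes.

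Expression of prmt2 was 19.5, 18.6 and 18.9 FPKM in the Δku70 libraries and 62.0, 52.6 and 50.0 in the ΔcxrA libraries. Each ΔcxrA library was above each Δku70 library, by a margin far larger than the spread within either strain. The scaled means were 20.2 ± 0.47 and 43.8 ± 4.31 (SD, n = 3), and the log2 fold change was 1.11 (SE 0.095, 95% interval 0.89 to 1.33, adjusted p = 2.2e-05, limma). The interval includes the fold threshold, so the change was clear of 0 while its place above the threshold was not fixed.

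POX_d05270, the gene with the least RNA of the 4, had the largest relative change. Its FPKM was 2.39, 2.42 and 3.38 in Δku70 and 20.6, 16.8 and 19.6 in ΔcxrA. The lowest ΔcxrA library was well above the highest Δku70 library. The scaled mean in ΔcxrA was 15.2 ± 1.28 (SD, n = 3), and the log2 fold change was 2.36 (SE 0.25, 95% interval 1.78 to 2.94, adjusted p = 7.4e-05, limma), or 5.14-fold on this scale. The whole interval lay above the fold threshold.

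Expression of prmt3 in ΔcxrA was 65.6, 62.9 and 72.6 FPKM, all above the 24.9 to 33.4 of the Δku70 libraries. The scaled means were 30.9 ± 3.88 and 53.6 ± 3.98 (SD, n = 3). The log2 fold change was 0.80 (SE 0.19, 95% interval 0.35 to 1.24, adjusted p = 0.0071, limma), short of the fold threshold. It was 1.21 on unscaled FPKM, and passed. The shared fit also takes the spread of prmt3 among the Δprmt3 libraries, where it is listed at 0 or 0.04. The adjusted p was 0.0012 with the Δku70 and ΔcxrA libraries alone, and 0.29 with a pseudocount of 0.01.

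POX_e06662, the most abundant of the 4, differed from the others. Its FPKM was 122, 88.6 and 111 in Δku70 and 103, 100.3 and 104 in ΔcxrA, so the unscaled values overlapped. After scaling the ΔcxrA libraries, at 81.7 ± 1.23 (SD, n = 3), lay below all Δku70 libraries, with a log2 fold change of -0.47 (SE 0.10, 95% interval -0.70 to -0.24, adjusted p = 0.0037, limma). Without further scaling the difference was -0.06 with an adjusted p of 0.68, and the median annotated gene lay at 0.42 on the log2 scale in that unscaled comparison. The difference of POX_e06662 is thus one relative to the median gene.

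**Figure D2:**
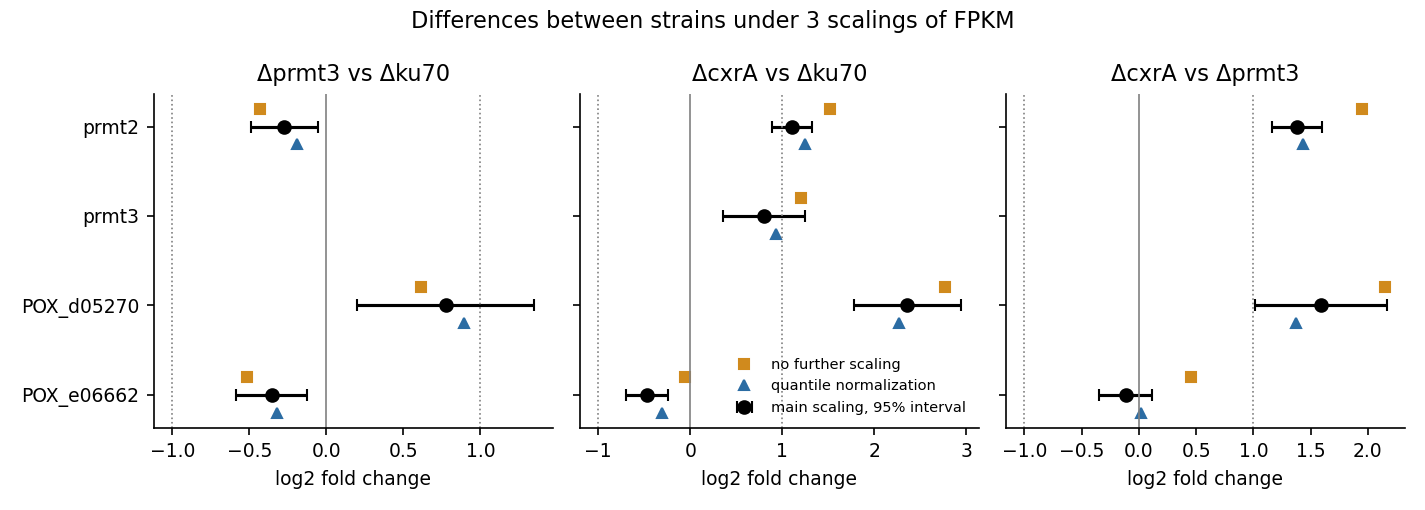
Log2 fold change (horizontal axis) of each arginine methyltransferase gene in the 3 comparisons of strains. Black points with bars are the limma estimates with 95% intervals, squares the FPKM without further scaling and triangles quantile normalization, and dotted lines mark the fold threshold. prmt3 is drawn only where it is not deleted. In ΔcxrA against Δku70, prmt2 and POX_d05270 lie beyond the threshold on all 3 scales, and POX_e06662 moves toward 0 without scaling.

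In Δprmt3 none of the 3 remaining methyltransferase genes was called against Δku70. The deleted gene was the only 1 of the 4 that passed the thresholds. Of the annotated genes tested, 11.2% were called in this comparison, and 3.72% of those tested were called higher. The Δku70 libraries are the same as in the ΔcxrA comparison, so the values of the comparisons are not independent of each other.

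The prmt2 gene had 13.4, 14.5 and 14.3 FPKM in the Δprmt3 libraries, each below the 18.6 to 19.5 of Δku70. The scaled mean was 16.7 ± 1.01 (SD, n = 3), and the log2 fold change -0.27 (SE 0.095, 95% interval -0.49 to -0.06, adjusted p = 0.067, limma). The libraries did not overlap, which was also the case for 42.1% of the annotated genes tested. The interval does not include the fold threshold in either direction.

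POX_e06662 had 76.4, 78.8 and 68.8 FPKM in Δprmt3, below all Δku70 libraries. After scaling the gap was narrower, with the highest Δprmt3 library at 93.5 and the lowest Δku70 library at 97.5. The scaled mean was 88.6 ± 4.90 (SD, n = 3), and the log2 fold change was -0.35 (SE 0.10, 95% interval -0.58 to -0.12, adjusted p = 0.032, limma), short of the fold threshold. An adjusted p under 0.05 at any size was reached by 27.9% of the annotated genes. Its adjusted p was under 0.05 in 9 of 17 alternatives, and without Δku70 replicate 1, the highest library, it was 0.090.

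POX_d05270 had 2.91, 5.52 and 4.54 FPKM in Δprmt3. Replicate 1 lay within the Δku70 range of 2.39 to 3.38 and the other 2 libraries above it. The scaled mean was 5.15 ± 1.62 (SD, n = 3), and the log2 fold change 0.77 (SE 0.25, 95% interval 0.20 to 1.35, adjusted p = 0.054, limma). The estimate depended on which Δprmt3 library was left out. Without replicate 1 the log2 fold change was 1.05 (adjusted p = 0.0067, limma), past both thresholds. Without replicate 2 it was 0.58 (adjusted p = 0.14, limma), and without replicate 3 it was 0.71 (adjusted p = 0.13, limma).

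The mutants were also compared with each other, where 3 of the 4 genes were called, all higher in ΔcxrA, and 28.0% of the annotated genes were called and 15.1% called higher. The same 3 genes had an adjusted p under 0.05, as had 61.9% of the annotated genes, and all 4 genes had libraries that did not overlap, as had 69.0%. One of the 3 is prmt3, which is absent by deletion from 1 side. Expression of prmt2 was higher in ΔcxrA than in Δprmt3 by 1.38 on the log2 scale (SE 0.095, adjusted p = 7.1e-06, limma), or 2.61-fold, and the lowest ΔcxrA library, at 50.0 FPKM, was far above the highest Δprmt3 library, at 14.5. POX_d05270 was higher in ΔcxrA by 1.59 (SE 0.25, adjusted p = 0.00072, limma), or 3.00-fold. The response of both genes to the deletions thus differed between the mutants by a direct test. For POX_e06662 the difference was -0.11 with a 95% interval of -0.34 to 0.11 (adjusted p = 0.35, limma), and its sign turned without further scaling, to 0.46.

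The share of each gene in the summed FPKM of the 4 does not depend on the scaling of the library. In Δku70, POX_e06662 held 67.7% ± 1.63 of this sum, prmt3 18.4% ± 0.47, prmt2 12.1% ± 1.5 and POX_d05270 1.74% ± 0.37 (SD, n = 3). In ΔcxrA the share of POX_e06662 was 42.1% ± 1.08, and those of prmt3, prmt2 and POX_d05270 were 27.6% ± 1.77, 22.6% ± 2.17 and 7.79% ± 0.50 (SD, n = 3). The methyltransferase RNA of ΔcxrA was thus spread more evenly over the 4 genes. In Δprmt3, where the sum holds 3 genes, POX_e06662 held 80.2% ± 1.99, prmt2 15.1% ± 1.00 and POX_d05270 4.64% ± 1.31 (SD, n = 3). Counted over the same 3 genes, the Δku70 shares were 83.0%, 14.9% and 2.13%, and the ΔcxrA shares were 58.1%, 31.1% and 10.8%. The share of prmt2 among these genes was therefore close in Δku70 and Δprmt3 and higher in ΔcxrA.

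**Figure D3:**
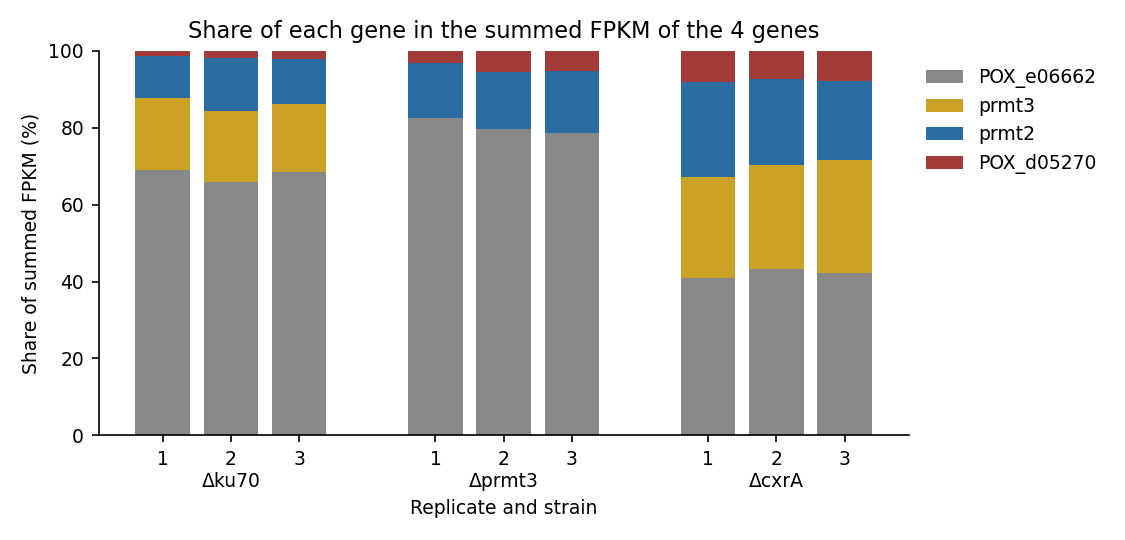
Share of each gene in the summed FPKM of the 4 arginine methyltransferase genes (vertical axis, %), 1 bar for each library. POX_e06662 fills 67.7% of the Δku70 bars on average, 80.2% of the Δprmt3 bars, from which prmt3 is missing, and 42.1% of the ΔcxrA bars.

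The RNA of the 3 genes present in every strain was also summed. On scaled FPKM it was 137 ± 15.5 in Δku70, 110 ± 5.92 in Δprmt3 and 141 ± 3.84 in ΔcxrA (SD, n = 3). ΔcxrA and Δku70 differed by a ratio of 1.03 (p = 0.8, two-sided exact permutation test), and Δprmt3 and Δku70 by a ratio of 0.807 (p = 0.1, two-sided exact permutation test, the smallest p that 3 libraries against 3 allow). Without scaling the ΔcxrA sum was 1.36 times and the Δprmt3 sum 0.72 times that of Δku70, so the likeness of the ΔcxrA and Δku70 sums rests on the scaling. With prmt3 included, the scaled sums were 168 ± 19.3, 110 ± 5.95 and 194 ± 4.14 (SD, n = 3) in Δku70, Δprmt3 and ΔcxrA.

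Ratios between genes within a library do not depend on any scaling, but they hold the changes of both genes. The ratio of POX_d05270 to POX_e06662 was between 0.0195 and 0.0304 in the Δku70 libraries, between 0.0381 and 0.0701 in Δprmt3, and between 0.168 and 0.200 in ΔcxrA. These ranges are separate, and the ratio was 7.31-fold higher in ΔcxrA and 2.22-fold higher in Δprmt3 than in Δku70. On scaled FPKM, POX_e06662 was itself lower than in Δku70, by a log2 fold change of -0.35 in Δprmt3 and -0.47 in ΔcxrA. Ratios over POX_e06662 thus include its own change, and the scaled libraries of POX_d05270 alone overlapped between Δprmt3 and Δku70. The ratio of prmt2 to POX_e06662 was 2.99-fold higher in ΔcxrA than in Δku70, whereas in Δprmt3 it was 1.06 times that of Δku70 and the libraries overlapped (p = 0.6, two-sided exact permutation test). The ratio of prmt3 to POX_e06662 was 2.41-fold higher in ΔcxrA. The ratio of prmt2 to prmt3 was 1.24 times that of Δku70 there, with overlapping libraries (p = 0.2, two-sided exact permutation test). Of 12 such ratios compared between strains, which share genes and libraries, 9 had libraries that did not overlap. Single annotated genes, on scaled FPKM, did not overlap in 42.1% to 70.3% of cases in the 3 comparisons. The share among ratios of other gene pairs was not computed, so the 9 have no matching background. Each of the 9 had p = 0.1 in the two-sided exact permutation test, the smallest this design allows, and 0.133 after Benjamini-Hochberg adjustment over the 12, so none can pass 0.05.

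The genes beside each methyltransferase gene were examined next, to see whether neighbours had like values. The 3 genes on each side were taken, 24 in all, in the order of the RefSeq assembly ASM172317v3, or of the gene identifiers for POX_d05270, which was not matched in RefSeq. Of these, 3 were called in ΔcxrA (12.5%), 2 in Δprmt3 (8.33%) and 5 between the mutants (20.8%), against 28.5%, 11.2% and 28.0% of all annotated genes.

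None of the 6 neighbours of prmt2 was called in either mutant against Δku70. The gene beside it, POX_f08429, differed by -0.81 in Δprmt3 on the log2 scale, short of the fold threshold, and by -0.40 in ΔcxrA. On the other side POX_f08427 differed by 0.58 in ΔcxrA, where prmt2 was at 1.11. The prmt2 gene was thus the only one of its stretch to be called in ΔcxrA.

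None of the 6 neighbours of the deleted prmt3 was called in Δprmt3, where they ranged from -0.52 to 0.26 on the log2 scale. In ΔcxrA, POX_b03078, 2 genes away from prmt3, fell. Its scaled means were 99.6 ± 5.27 in Δku70 and 13.5 ± 1.58 in ΔcxrA (SD, n = 3), and its log2 fold change was -2.88 (SE 0.16, adjusted p = 1.9e-06, limma). It was the only neighbour of prmt3 called there, and it lay in the direction opposite to that of prmt3. None of the 6 neighbours of POX_e06662 was called in any of the 3 comparisons.

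Of the 6 neighbours of POX_d05270, 2 were called in each mutant against Δku70 (33.3%), where 28.5% of all annotated genes were called in ΔcxrA and 11.2% in Δprmt3. POX_d05269 had 24.0, 24.4 and 24.9 FPKM in Δku70 and 109, 140 and 206 in ΔcxrA, so it rose with POX_d05270 and by a like amount, with a log2 fold change of 2.17 (SE 0.20, adjusted p = 3.5e-05, limma). In Δprmt3 it had 18.8, 20.5 and 17.7 FPKM, a log2 fold change of -0.21 (adjusted p = 0.50, limma), where POX_d05270 was at 0.77. The strand of the reads is not given in the sources used here, and POX_d05269 ends 395 bases before POX_d05271 in RefSeq, which leaves little room for POX_d05270 between them. Whether reads of the neighbouring genes were shared was not tested, so the level of POX_d05270 is less certain than that of the other 3. The ratio of POX_d05269 to POX_d05270 ran from 7.37 to 10.1 in Δku70, from 3.71 to 6.46 in Δprmt3 and from 5.29 to 10.5 in ΔcxrA, so the ranges of Δku70 and ΔcxrA overlapped.

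Farther along, POX_d05267, which the study's annotation describes as a C2H2 zinc finger transcription factor gene, rose in both mutants. It was at 22.9 ± 3.67 scaled FPKM in Δku70, 90.6 ± 26.5 in Δprmt3 and 59.4 ± 21.2 in ΔcxrA (SD, n = 3), with log2 fold changes of 1.96 (adjusted p = 0.0013, limma) and 1.33 (adjusted p = 0.0035, limma). POX_d05268, with a mean under 3 scaled FPKM in every strain, rose by 1.79 on the log2 scale in Δprmt3 (adjusted p = 0.022, limma). Past POX_d05270, the genes POX_d05271, POX_d05272 and POX_d05273 were not called in either mutant against Δku70.

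**Figure D4:**
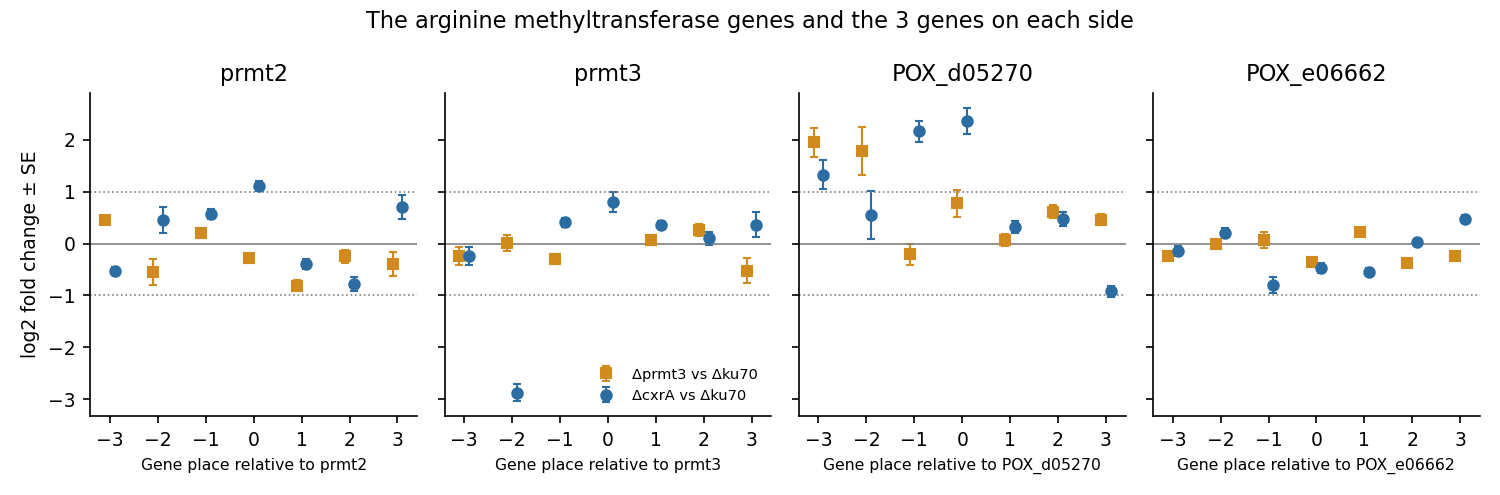
Log2 fold change (vertical axis) against Δku70 of each arginine methyltransferase gene, at place 0, and of the 3 genes on each side (horizontal axis, place in gene order), with bars of 1 SE from limma, squares for Δprmt3 and circles for ΔcxrA. Dotted lines mark the fold threshold, and the point of the deleted prmt3 in Δprmt3 is not drawn. Beside POX_d05270, POX_d05269 lies at 2.17 in ΔcxrA and at -0.21 in Δprmt3, while the neighbours of prmt2 and POX_e06662 lie within the threshold.

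To see which genes had the same pattern, log2(scaled FPKM + 0.1) of each methyltransferase gene was correlated with that of the 8744 other annotated genes with a mean of at least 1 scaled FPKM. Pearson's r was taken over the 9 libraries, which fall into 3 strains, so r mostly reflects the strain means and is a description only. Closest to prmt2 were POX_c04066, POX_c04057 and POX_f07675, with r from 0.996 to 0.997, and 415 genes were above 0.95. All 3 had their highest level in ΔcxrA, as prmt2 did. For POX_d05270 the closest were POX_d05627, POX_b02556 and POX_b02028, with r of 0.995, 0.990 and 0.988, and 118 genes were above 0.95. Of these, POX_b02556 went from 47.7 ± 3.74 scaled FPKM in Δku70 to 75.1 ± 13.9 in Δprmt3 and 186 ± 10.5 in ΔcxrA (SD, n = 3), the same order of strains as POX_d05270.

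POX_e06662 had the fewest genes above 0.95, at 3. Its own log2 fold changes against Δku70 were small, at -0.35 in Δprmt3 and -0.47 in ΔcxrA. Small differences between strains leave less room for a high r, so the count does not show how common its pattern is. The 3 genes were POX_e06401, POX_a01514 and POX_e06969, with r of 0.973, 0.965 and 0.951. All 3 were highest in Δku70, and POX_e06969 went from 177 ± 12 to 148 ± 9.37 in Δprmt3 and 135 ± 2.55 in ΔcxrA (SD, n = 3). Among the methyltransferase genes themselves, r was 0.85 between prmt2 and POX_d05270 and -0.75 between POX_d05270 and POX_e06662. It was -0.49 between prmt2 and POX_e06662. For prmt3, whose values include its deletion, r was 0.71 with prmt2, 0.27 with POX_d05270 and 0.20 with POX_e06662.

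For prmt3 the pattern is set by its deletion, and 52 genes had r above 0.95. The closest were POX_c04583, POX_c04601 and POX_c04600, with r from 0.997 to 0.998. They were at 30.8 ± 2.58, 15.1 ± 2.53 and 8.73 ± 0.96 scaled FPKM (SD, n = 3) in Δku70 and at 40.2 ± 3.31, 22.8 ± 2.52 and 10.4 ± 0.98 in ΔcxrA, and all 3 were listed at 0 in every Δprmt3 library. Whether the Δprmt3 strain differs from Δku70 in other places than prmt3 was not tested.

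**Figure D5:**
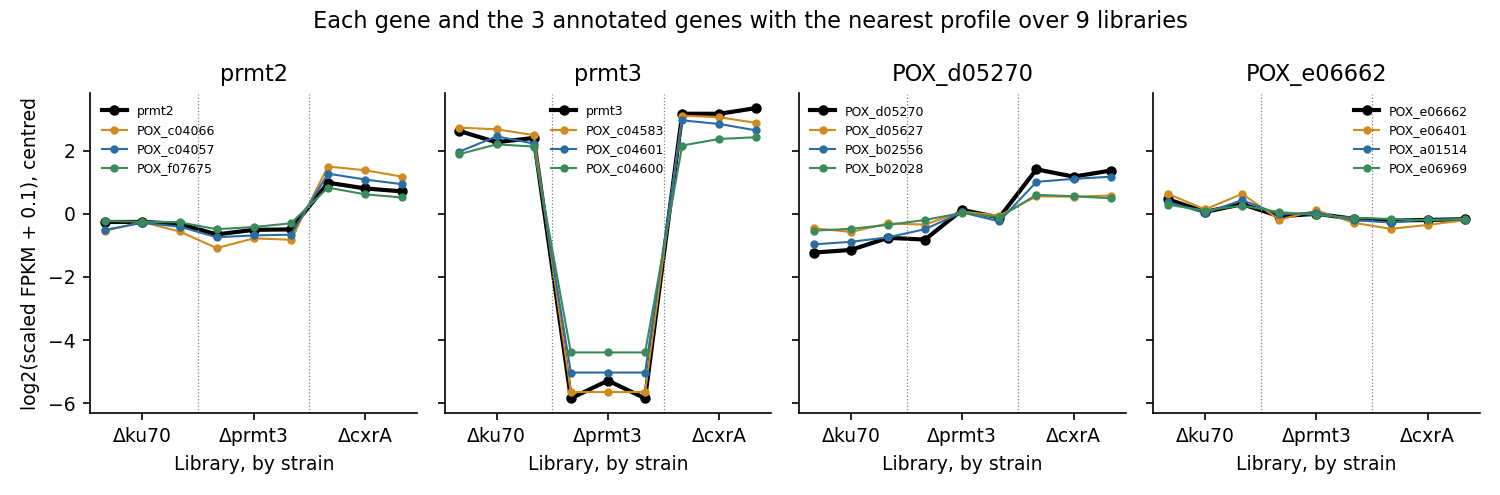
Log2(scaled FPKM + 0.1) minus the mean of the gene over the 9 libraries (vertical axis), for each arginine methyltransferase gene (black) and the 3 annotated genes with the highest Pearson's r to it (colours), with libraries in order of strain on the horizontal axis. The 3 genes nearest to prmt3 drop with it in all Δprmt3 libraries, and the panels of prmt2 and POX_d05270 are highest in ΔcxrA.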

How the data were processed

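Total RNA of mycelium was converted to cDNA with random primers and sequenced, and per the labels and the study's methods the authors filtered the reads (SOAPnuke), aligned them (HISAT2) and estimated expression (RSEM with Bowtie2). They deposited 1 table of FPKM for each of the 9 libraries. The genome build and the strandedness are not given in the sources used here. Each library summed to between 1036050 and 1096740 FPKM with 9846 to 10270 features above 0. Read counts were not analysed here, so no counting error is given, and the authors' DESeq2 test was not repeated. Depth was not measured directly. The most common small value of FPKM times gene length in kb was taken as near that of a single fragment. It lay between 0.08 and 0.1 in the Δprmt3 libraries, 0.22 and 0.28 in ΔcxrA, and 0.08 and 0.26 in Δku70. A larger value goes with fewer fragments, so depth may differ between the strains. Whether depth has a part in the results, or in the genes listed at 0, was not tested.

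Strains and replicate numbers came from the labels. The libraries labelled POX03070 were taken as Δprmt3, the only other deletion strain in the study's RNA-sequencing. Library factors were medians of ratios, using the 9335 features that no library lists at 0, and log2(scaled FPKM + 0.1) was fitted with a mean for each strain in limma 3.58.1 (R 4.3.3, eBayes with trend). Of 11082 features, 504 at 0 throughout were left out. Fold changes are on the log2(scaled FPKM + 0.1) scale, which understates those of low genes. Sums and ratios were compared with exact permutation tests in Python 3.11.15 with SciPy 1.17.1. The thresholds are the study's. The fit was tested on simulated data.

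RefSeq matched 9718 annotated identifiers, and 3 of the 4 genes, and served only for neighbours and distances. Named genes are the 4 genes, the deleted cxrA, the 3 neighbours on each side and the 3 genes of highest r. Lists by product name or sequence had been planned. They were of other protein methyltransferases and SET domain proteins, the S-adenosylmethionine cycle, known substrates of arginine methyltransferases in other species, and JmjC proteins. These lists were not analysed here because the reference pairs no product names with identifiers, and neither were gene sequences. The members and lists were chosen with earlier results of these data known. Alternatives were unscaled FPKM, quantile normalization, a pseudocount of 1 or of 0.01, a minimum mean of 1 scaled FPKM, only the 6 libraries of a comparison, the replicate number as a block, robust eBayes, and leaving out each replicate.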

Additional observations from a re-analysis of the deposited data

How the results depend on the processing

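Of 204 log2 fold changes of the 4 genes under 17 alternatives for each of 3 comparisons, 200 kept their direction and their side of the call. This count overstates the stability. It includes prmt3 in the comparisons with Δprmt3, where the deletion fixed the call. It also includes fits that only left out a library of the strain not compared, which could change little. Without further scaling the difference of POX_e06662 between ΔcxrA and Δprmt3 turned to 0.46, and under quantile normalization to 0.018, and prmt3 in ΔcxrA against Δku70 was called, at 1.21. Unscaled FPKM shifted the median annotated gene by -0.13 in Δprmt3 and 0.42 in ΔcxrA against Δku70, and by 0.57 between the mutants, and the calls were then 2246 higher and 849 lower in ΔcxrA (1365 and 1300 with scaling), 270 and 807 in Δprmt3 (348 and 696) and 2729 and 594 between the mutants (1418 and 1205). With 1 replicate left out, between 1 and 2 of the 4 genes were called in Δprmt3 against Δku70. In ΔcxrA against Δku70, prmt2 (1.03 to 1.52) and POX_d05270 (2.06 to 2.77) were called under all 17 alternatives. The adjusted p from limma ranged from 0.00050 to 0.29 for prmt3 in ΔcxrA, 0.00077 to 0.68 for POX_e06662 in ΔcxrA, 0.0065 to 0.10 for POX_e06662 in Δprmt3, 0.0067 to 0.14 for POX_d05270 in Δprmt3 and 0.013 to 0.20 for prmt2 in Δprmt3. Since FPKM carry no counts, the counting error of POX_d05270, the lowest of the 4 genes, is unknown.

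Libraries with the same replicate number did not deviate together: of 9 same-numbered pairs across strains, 0 had a correlation of deviations over 0.1 (-0.041 to 0.049), and in 6 of 18 comparisons a library was closest to its own number. With the replicate number as a block, 1, 2 and 3 of the 4 genes were called in the 3 comparisons, as without it, and 1000, 2650 and 2589 annotated genes against 1044, 2665 and 2623. The adjusted p of POX_e06662 in Δprmt3 against Δku70 was 0.061 with the block.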

Other observations

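The 3 genes with the profile nearest to prmt3 lie close together by identifier and are not neighbours of prmt3, whose own 6 neighbours were not called in Δprmt3. Of the 7483 annotated genes with at least 5 scaled FPKM in every Δku70 library, 4 were listed at 0 in every Δprmt3 library. They are POX_c04583, POX_c04600, POX_c04601 and POX_c04680, named after their values were seen. At the same level, 5 genes were listed at 0 in every ΔcxrA library, the deleted cxrA (POX_a00763) among them, and 0 of the 5 lay in the stretch described next. The tables hold 21 genes from POX_c04579 to POX_c04601, of which 10 were above 0 in all Δku70 libraries, 6 of those were at 0 in all Δprmt3 libraries, and 0 were at 0 in all ΔcxrA libraries. Of the 6, POX_c04584, POX_c04590 and POX_c04591 were low in Δku70 as well, with means of 0.34, 0.41 and 0.29 scaled FPKM. The genes between them were not all at 0. POX_c04580 had a mean of 52.5 scaled FPKM in Δku70 and 40.4 in Δprmt3, POX_c04587 had 321 and 47.0, and POX_c04595 had 163 and 0.14. The stretch was picked because of its values. No cause was tested, nor whether the Δprmt3 strain carries a change in its genome other than at prmt3, so the Δprmt3 values are those of this strain and cannot be assigned to the loss of prmt3 alone.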
